A study of Mus musculus with 24 samples.

Results

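Late zygotes (PN5, the last pronuclear stage before the first cleavage) of Nlrp14 knockout mice were compared with wild-type zygotes of that stage. Membership followed the genotype and stage labels, which gave 3 knockout and 3 wild-type libraries, 6 of the 24 libraries of a series that also covers 2-cell embryos and oocytes at the germinal vesicle (GV) and metaphase II (MII) stages with 3 libraries per genotype at each stage. Each library was made from the total RNA of 5 oocytes or embryos with the SMART-Seq HT kit and is labelled a biological replicate, so a p-value measures the spread between pools. The sources used here do not give the strain, the age, the deleted part of the gene or the genotype of the sires. Levels are the authors' FPKM (fragments scaled to transcript length and library size). Each difference is log2(FPKM + 1) in the knockout less that in wild type, a scale that understates the change of low genes.

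NLRP14 belongs to the NLR family, whose oocyte members are maternal proteins that the egg supplies to the embryo, and females that lack it are infertile. Between the egg and the 2-cell embryo the stored maternal mRNAs are polyadenylated and translated or deadenylated and destroyed, while transcription from the new genome is only beginning. At PN5 the pronuclei have replicated their DNA and lie close together, most mRNA is still maternal, and the zygote depends on maternal mitochondria for its energy. The kit primes cDNA from poly(A) tails, so the amount of a transcript and the length of its tail cannot be told apart in these values, and neither can fewer cells and less RNA per cell.

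Nlrp14 itself (ENSMUSG00000016626, GRCm38 chr7:107166990-107198102, + strand) stood at 6.17, 8.48 and 5.75 FPKM in knockout zygotes, against 169, 243 and 217 FPKM in wild-type zygotes. Every knockout library was far below every wild-type library (log2 difference -4.76, SE 0.23, limma adjusted p = 0.00027), so the libraries bore out their genotype labels. A gene-level FPKM does not show which exons were lost.

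Depth read from the steps between low FPKM values was 9.69 to 11.4 M fragments in the knockout libraries and 9.20 to 11.2 M in the wild-type libraries. All 12 markers of oocytes and zygotes were tested genes in both genotypes, whereas 9 of 25 granulosa and cumulus markers, 11 of 19 sperm markers and 8 of 15 blood, stroma and oviduct markers were listed at 0 in all 6 libraries. Summed FPKM of the granulosa markers was 64.0 to 84.5 in the knockout and 64.2 to 104 in wild type, of the sperm markers 12.7 to 15.7 in the knockout and 11.2 to 12.3 in wild type, and of the blood, stroma and oviduct markers 9.33 to 11.1 in the knockout and 3.22 to 6.85 in wild type. Of the last set, Pecam1, a surface protein of endothelial cells, made up most, with 8.07, 8.42 and 8.16 FPKM in the knockout and 1.43, 2.81 and 5.15 FPKM in wild type. The wild-type libraries differed more among themselves than the knockout libraries did. Mitochondrially encoded genes took 9.88, 9.17 and 11.5% of summed FPKM in the knockout libraries, and 21.8, 11.8 and 8.30% in the wild-type libraries. Wild-type replicate 1 thus stood furthest apart, and medians and calls that moved by over 1.5 times without it are given with and without it. The median log2 difference of all tested genes was 0.01 with it and -0.09 without it, the reference for list medians without it. Wild-type replicate 1 was not the only sign of spread. Across tested genes, wild-type replicate 3 correlated with knockout replicates 1 and 2 (Pearson r of log2 levels 0.964 and 0.966) about as closely as with wild-type replicate 2 (0.964). Its correlation with wild-type replicate 1 was lower (0.904).

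In knockout zygotes 578 of 9483 tested genes (6.10%) differed from wild type at an adjusted p under 0.05 (limma, Benjamini-Hochberg adjustment over all tested genes), and most of them were lower. The knockout was lower for 524 genes (5.53% of those tested) and higher for 54 (0.569%). For all 578, the 3 knockout libraries lay wholly on one side of the 3 wild-type libraries, which was so for 2277 tested genes with the knockout below (24%) and 1524 with the knockout above (16.1%). Genes that fell were short and often noncoding, with a median exon length of 1170.5 nt and 52.1% protein-coding members, against 4221.5 nt and 85.2% for genes that rose and 3120 nt and 74.7% for all tested genes. The number of calls depended strongly on scaling and on single libraries. It was 14 (0.148%, 3 higher and 11 lower) after median-of-ratios scaling, 7 (0.0738%) as TPM and 616 without wild-type replicate 1, of which 456 were calls of the full comparison. It fell to 1 or 2 when wild-type replicate 2 or any of the knockout replicates was left out, and stood at 2967 without wild-type replicate 3. Every one of the 578 kept its sign wherever it was tested in those fits. With the libraries of all 578 apart, leaving out 1 library could not turn a sign, so only the scalings tested it.

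**Figure D1:**
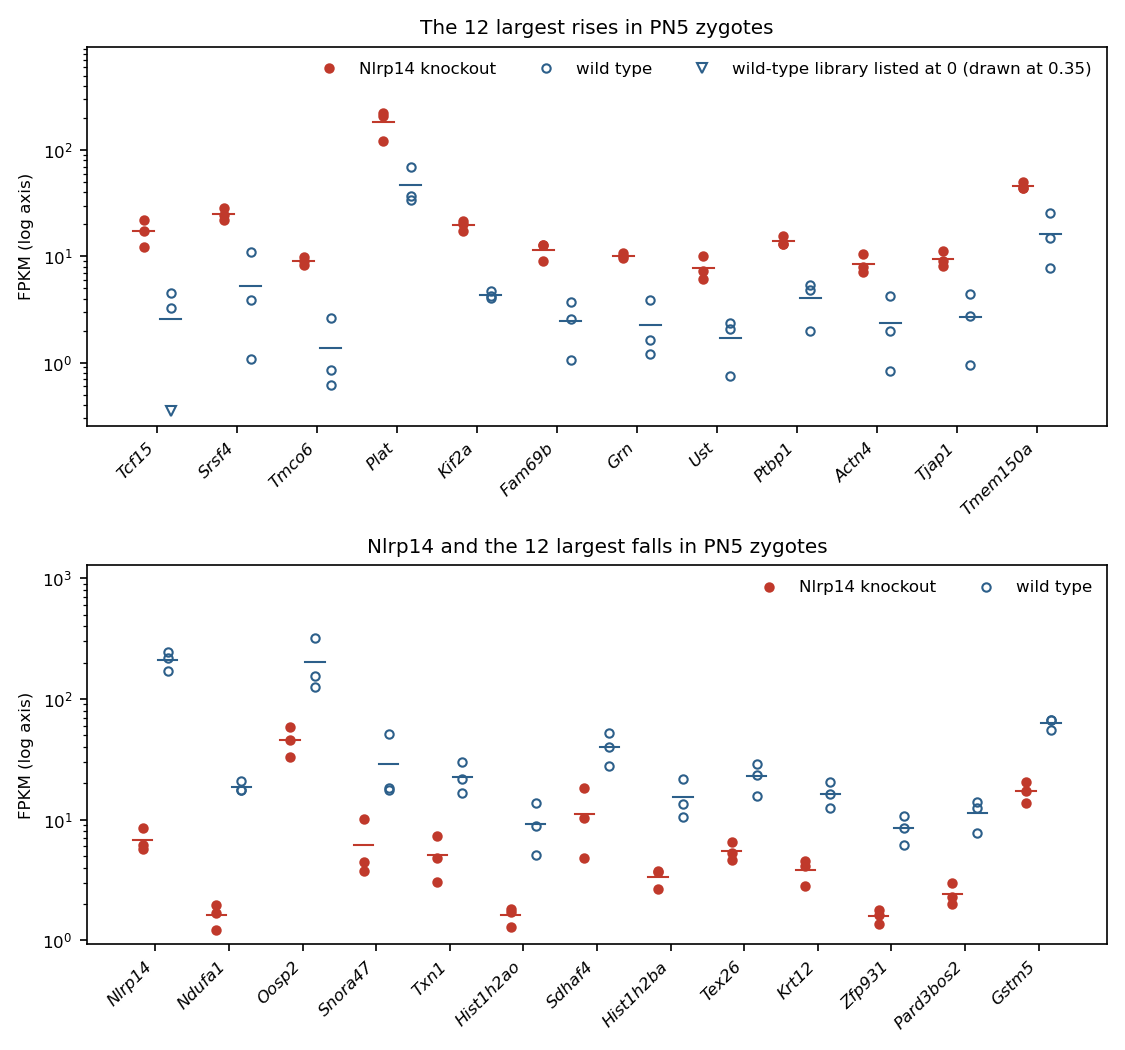
FPKM on a log axis of the 12 largest rises (top) and of Nlrp14 and the 12 largest falls (bottom) among called genes in PN5 zygotes, with filled red points for knockout libraries, open blue points for wild-type libraries and bars for the means of 3 libraries. In every gene shown the knockout points lie wholly above or wholly below the wild-type points, and a triangle marks the wild-type library in which Tcf15 is listed at 0.

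Called genes other than Nlrp14 that also passed the test after median-of-ratios scaling, as TPM and with the trend against exon length removed numbered 4. Ndufa1, a small membrane-arm subunit of respiratory complex I, had 1.68, 1.97 and 1.22 FPKM in knockout zygotes, against 20.7, 17.6 and 17.6 FPKM in wild type. The knockout level was lower in every library, by 11.5-fold between means (log2 difference -2.91, SE 0.22, adjusted p = 0.0040). Kif2a, a kinesin that takes microtubules apart at their ends, had 20.3, 17.4 and 21.3 FPKM in the knockout, against 4.68, 4.22 and 4.05 FPKM in wild type. It rose 4.56-fold between means with no overlap (log2 difference 1.96, SE 0.21, adjusted p = 0.018). The remaining pair, chosen after their values were seen, have no assigned function: Gm31717 averaged 1.93 FPKM in the knockout and 16.3 FPKM in wild type, and C130073F10Rik 3.78 FPKM in the knockout and 30.6 FPKM in wild type.

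Among the 12 largest rises were regulators of transcription, splicing and the cytoskeleton. Tcf15, Srsf4, Ptbp1, Actn4, Tjap1 and Tmem150a were not called with the length trend removed, nor with the length and GC trends removed (limma adjusted p = 0.052 to 0.068). Kif2a, Plat, Tmco6, Fam69b, Grn and Ust were called in both of these fits. Plat, the secreted protease tissue plasminogen activator and a classic dormant mRNA of the oocyte, had 209.8, 122 and 225 FPKM in the knockout and 37.1, 33.7 and 69.1 FPKM in wild type (log2 difference 2.00, SE 0.34, adjusted p = 0.035). Its lowest knockout library was above its highest wild-type library. Srsf4, an SR splicing factor, stood at 21.8, 28.5 and 24.4 FPKM in the knockout and at 1.09, 3.85 and 10.97 FPKM in wild type. Tcf15, a basic helix-loop-helix transcription factor, had 17.2, 22 and 12.2 FPKM in the knockout, whereas 1 wild-type library listed it at 0 and the others held 4.55 and 3.24 FPKM. For both genes the groups were apart, and the wild-type libraries nearest to the knockout were replicate 3 for Srsf4 and replicate 2 for Tcf15. Ptbp1, a splicing repressor that binds pyrimidine tracts, averaged 13.8 ± 1.38 FPKM in the knockout and 4.06 ± 1.82 FPKM in wild type (SD, n = 3 each). Actn4, an actin crosslinker, averaged 8.48 ± 1.77 FPKM in the knockout and 2.35 ± 1.73 FPKM in wild type, and Grn, the precursor of granulin growth factors, 10.2 ± 0.544 FPKM in the knockout and 2.24 ± 1.45 FPKM in wild type. Tmem150a averaged 46.1 ± 3.75 FPKM in the knockout and 16.1 ± 8.88 FPKM in wild type, and the means of Tmco6, Fam69b, Ust and Tjap1 lay between 7.78 and 11.6 FPKM in the knockout and between 1.37 and 2.68 FPKM in wild type. Srsf4, Tmco6, Kif2a, Actn4 and Tmem150a overlap genes on the other strand, and the counting is not stated to use strand, so reads could not be assigned with certainty. The overlapping genes averaged 1.45 to 7.10 FPKM in the knockout.

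Besides Ndufa1, the 12 largest falls included secreted, redox and histone genes. Oosp2, an oocyte-secreted protein, had 45.3, 59.1 and 33.2 FPKM in the knockout and 322, 154 and 126 FPKM in wild type (log2 difference -2.02, SE 0.37, adjusted p = 0.036). Txn1, the cytosolic thioredoxin that reduces protein disulfides, had 4.84, 7.36 and 3.02 FPKM in the knockout and 30.2, 21.5 and 16.5 FPKM in wild type (log2 difference -1.99, SE 0.33, adjusted p = 0.035). For both genes the groups were apart, and wild-type replicate 1 was the highest library. Gstm5, a glutathione transferase, had 17.3, 20.6 and 13.8 FPKM in the knockout and 67.4, 67.4 and 55.1 FPKM in wild type, with little spread in either group (log2 difference -1.83, SE 0.22, adjusted p = 0.029). Sdhaf4, an assembly factor of succinate dehydrogenase, averaged 11.1 ± 6.70 FPKM in the knockout and 39.8 ± 12.3 FPKM in wild type. It was not called without wild-type replicate 1 (adjusted p = 0.069) or with the length trend removed (adjusted p = 0.082). The histone gene Hist1h2ba, which codes for the H2B variant of germ cells, averaged 3.36 ± 0.602 FPKM in the knockout and 15.3 ± 5.92 FPKM in wild type, and Hist1h2ao 1.61 ± 0.283 FPKM in the knockout and 9.23 ± 4.38 FPKM in wild type, with reads that near-identical histone copies may share. Tex26, Krt12, Zfp931 and Pard3bos2 averaged 1.6 to 5.46 FPKM in the knockout and 8.49 to 22.8 FPKM in wild type. Snora47 lies inside Zbed3, a gene with 3113 ± 259.6 FPKM in the knockout and 1919 ± 876 FPKM in wild type, and its own 6.12 ± 3.53 FPKM in the knockout and 29 ± 19.3 FPKM in wild type cannot be told apart from Zbed3 reads. Snora47 was not called without wild-type replicate 1 (adjusted p = 0.0504) or with the length trend removed (adjusted p = 0.069).

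The difference between genotypes followed exon length. From the shortest to the longest of 5 equal bins of tested genes the median log2 difference was -0.48, -0.26, 0.08, 0.22 and 0.26, and the number of genes called lower was 221, 182, 79, 31 and 9. Without wild-type replicate 1 the medians were -0.40, -0.27, -0.06, 0.03 and 0.09. Within a library, the slope of log2 level against log2 exon length, relative to the mean of the 6 libraries, was 0.071, 0.059 and 0.091 in the knockout and -0.168, -0.070 and 0.016 in wild type. The 3 knockout libraries thus leaned towards long genes more than any wild-type library. GC content separated the genotypes as fully, with slopes per 10 points of GC of 0.148, 0.180 and 0.074 in the knockout and -0.382, -0.071 and 0.051 in wild type. Median GC content was 53.2% for genes that rose, 46.2% for genes that fell and 47.7% for all tested genes. With the length trend removed 176 genes (1.86%) were called, 162 of them among the 578, and with the trends against length and GC content removed 144 (1.52%) were called, 132 of them among the 578. Medians of gene lists with the length trend removed are given beside those that moved by over 1.5 times.

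**Figure D2:**
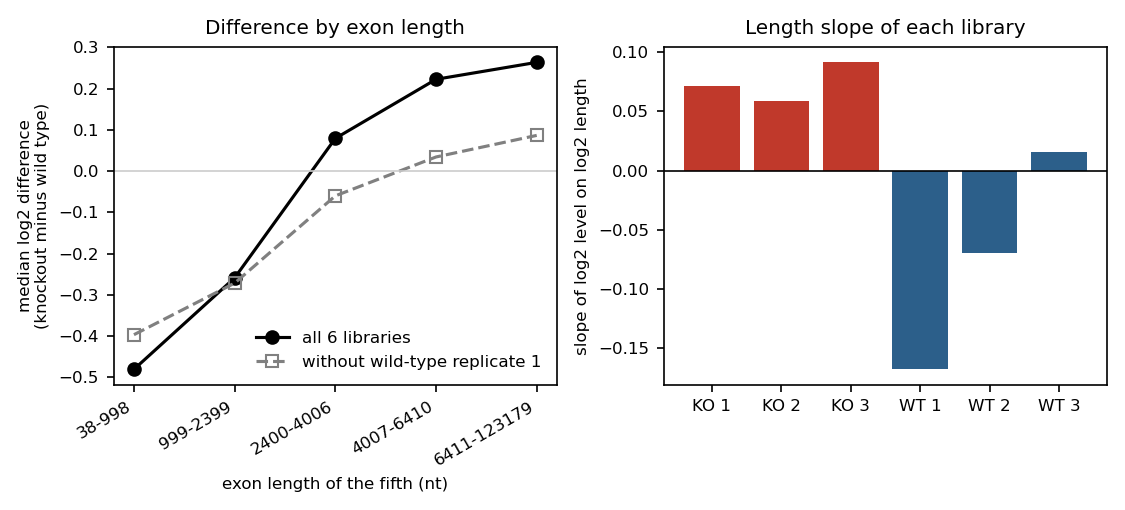
Left, the median log2 difference (knockout minus wild type) in each of 5 equal bins of tested genes by exon length, with all 6 libraries (filled) and without wild-type replicate 1 (open). Right, the slope of log2 level on log2 exon length in each library relative to the mean of all 6, with red bars for knockout and blue bars for wild type: all knockout slopes are above all wild-type slopes.

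Nuclear genes of the respiratory chain leaned lower in knockout zygotes. Of 26 tested genes of complex I, which passes electrons from NADH to ubiquinone, 3 fell (11.5%, beside 5.53% of all tested genes) and none rose, 23 differences were negative, and the median was -0.63 where that of all tested genes was 0.01. Besides Ndufa1, Ndufs5 averaged 2.08 ± 0.424 FPKM in the knockout and 10.4 ± 5.70 FPKM in wild type, and Ndufab1, the acyl carrier protein of the complex, 1.94 ± 0.414 FPKM in the knockout and 4.84 ± 0.657 FPKM in wild type. In complexes II to V and their cytochrome, 6 of 32 tested genes fell (18.8%) and none rose, 27 differences were negative and the median was -0.75. Cox7a2, a subunit of cytochrome c oxidase, had 29.98, 33.6 and 24.9 FPKM in the knockout and 98.5, 68.3 and 62.7 FPKM in wild type (log2 difference -1.33, SE 0.24, adjusted p = 0.036). The groups did not overlap. Cox5b and Cox6b1 of the same enzyme, Uqcr10 and Uqcr11 of the cytochrome bc1 complex and Sdhc, a membrane anchor of succinate dehydrogenase, were the other 5. Uqcr11 had 0.237, 0.744 and 0.462 FPKM in the knockout and 2.58, 1.57 and 2.61 FPKM in wild type. It reached the 1 FPKM that the filter asks of 3 libraries in wild type alone, so it could only come out lower. Cox6b1, not called without wild-type replicate 1 (adjusted p = 0.063), averaged 5.01 ± 2.93 FPKM in the knockout and 18.8 ± 6.98 FPKM in wild type, and Sdhc 3.90 ± 1.10 FPKM in the knockout and 9.46 ± 0.578 FPKM in wild type. Not every subunit gave a negative value. Among those named after their values were seen, Sdha had a log2 difference of 0.87, Atp5a1 of 0.66, Atp5b of 0.57 and Ndufs1 of 0.22, none past the threshold. Knockout libraries lay wholly below wild type for 16 of the 26 and 22 of the 32 genes, beside 24% of all tested genes. Median exon lengths of the 2 lists were 1202 and 1671.5 nt, against 3120 nt for all tested genes. Without wild-type replicate 1, 4 and 6 genes fell. With the length trend removed the medians were -0.38 and -0.56, and 3 genes of complex I and none of complexes II to V fell. With the length and GC trends removed the medians were -0.54 and -0.59 and 1 gene of each set fell.

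Summed over complex I the FPKM was 149, 148 and 127 in the knockout, against 309, 261 and 209 in wild type. Summed over complexes II to V it was 671, 680 and 577 in the knockout, against 979, 959 and 870 in wild type. Both sums were apart, at the smallest p that 3 against 3 libraries allow (exact two-sided permutation test, p = 0.1). The 13 genes encoded in the mitochondrion itself did not separate the genotypes. Their summed FPKM was 27344, 25437 and 32424 in the knockout and 92823, 38218 and 23245 in wild type (exact permutation p = 0.4). The wild-type range took in all the knockout libraries. All 13 differences were negative with a median of -0.57 and none passed, and the median was -0.12 without wild-type replicate 1, -0.15 with the length trend and 0.25 with the length and GC trends removed. mt-Co2, a core subunit of cytochrome c oxidase, had 1378, 1173 and 1494 FPKM in the knockout and 6030.4, 2183 and 1288 FPKM in wild type.

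**Figure D3:**
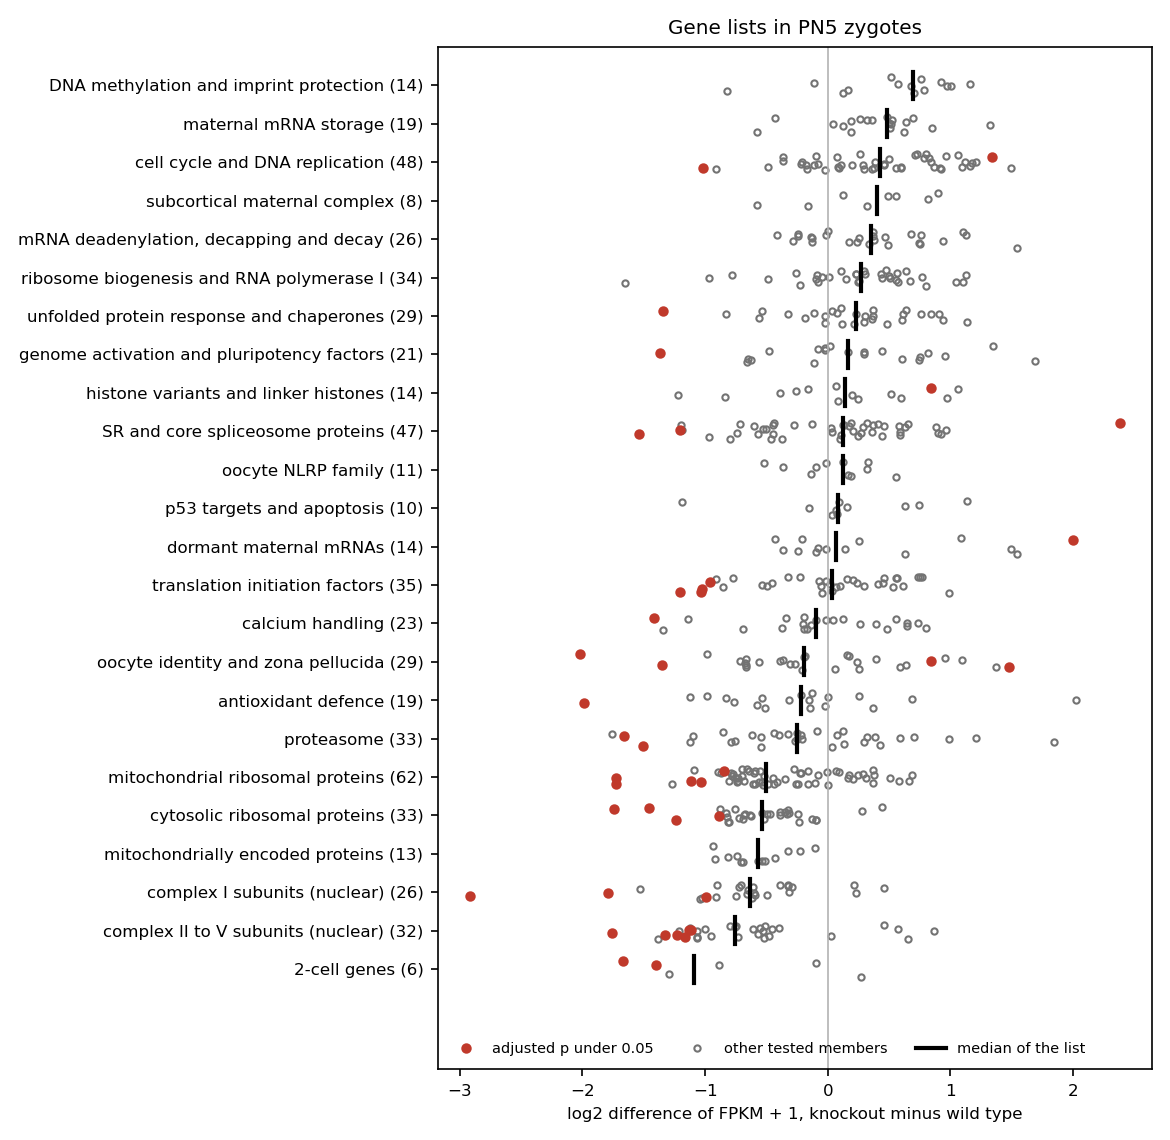
Log2 difference of FPKM + 1 (knockout minus wild type) of every tested member of 24 gene lists in PN5 zygotes, with filled red points for members with an adjusted p under 0.05, open points for the others, a black bar at each list's median and the number tested in brackets. Lists run from the highest median, 0.69 for DNA methylation and imprint protection, to the lowest, -1.09 for 2-cell genes, and the called members of the respiratory chain and ribosome lists all lie below 0.

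Medians of the ribosomal protein genes were also negative. Of 62 tested proteins of the mitochondrial ribosome, which translates the mitochondrial mRNAs, 5 fell (8.06%, near the 5.53% of all tested genes) and none rose, and the median was -0.51, or -0.31 with the length trend removed. Mrps33 averaged 12.1 ± 3.19 FPKM in the knockout and 43.1 ± 14.96 FPKM in wild type, Mrps28 6.11 ± 2.16 FPKM in the knockout and 23.1 ± 10.8 FPKM in wild type, and Mrpl34 32.6 ± 2.73 FPKM in the knockout and 59.7 ± 8.58 FPKM in wild type. Mrpl35 and Mrps6 were the other called members. Of 33 tested proteins of the cytosolic ribosome 4 fell (12.1%) and none rose, 31 differences were negative and the median was -0.54, or -0.16 with the length trend removed. That removal left 1 call in each ribosome. Rpl32, a protein of the large subunit, had 7.14, 7.4 and 6.28 FPKM in the knockout and 36.7, 23.7 and 19.06 FPKM in wild type (log2 difference -1.74, SE 0.27, adjusted p = 0.034). Rpl17 averaged 13.7 ± 2.23 FPKM in the knockout and 41.0 ± 14.3 FPKM in wild type. Rplp2, an acidic stalk protein, averaged 12.1 ± 1.91 FPKM in the knockout and 30.3 ± 6.92 FPKM in wild type. Rpl39, at 0.248 FPKM in the knockout and 1.29 FPKM in wild type, was close to the filter on low values. Rpl39 passed that filter through wild type alone, so it could only come out lower. Ribosomal protein genes have many near-identical pseudogene copies, so it is uncertain how reads were shared out among them. Without wild-type replicate 1, 7 mitochondrial and 3 cytosolic ribosomal proteins fell. Of 79 listed cytosolic ribosomal proteins 33 passed the filter.

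Translation initiation factors had a median near 0 (0.03, and -0.08 without wild-type replicate 1), and 4 of the 35 tested fell (11.4%, beside 5.53% of all tested genes) and none rose. With the length trend removed the median was -0.02 and 1 fell. Eif1, which guards start codon choice, had 78.0, 65.4 and 57.8 FPKM in the knockout and 153, 172 and 142 FPKM in wild type (log2 difference -1.21, SE 0.20, adjusted p = 0.035). The groups were well apart. Its paralogue Eif1b averaged 103 ± 6.70 FPKM in the knockout and 215 ± 54.0 FPKM in wild type, Eif1ax, which acts beside it in scanning, 5.75 ± 0.139 FPKM in the knockout and 12.3 ± 2.36 FPKM in wild type, and the eIF3 subunit Eif3k 4.30 ± 0.510 FPKM in the knockout and 9.91 ± 1.42 FPKM in wild type. The scaffold Eif4g1, with a log2 difference of 0.77, and Eif3b, with 0.99, did not pass. In the proteasome, the protease that clears maternal proteins, 2 of 33 tested genes fell (6.06%, a share near that of all tested genes) and none rose, with a median of -0.25, or -0.14 with the length trend removed and 1 call. Both belong to the core particle. Psma1 had 24.4, 18.2 and 20.4 FPKM in the knockout and 89.7, 54.8 and 46.4 FPKM in wild type, and Psmb2 38.0, 54.2 and 21.5 FPKM in the knockout and 155, 114 and 84.3 FPKM in wild type. Psmb2 was not called without wild-type replicate 1 (adjusted p = 0.056).

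Genes that store or destroy maternal mRNA gave positive medians with no call. Of 26 tested genes of deadenylation, decapping and decay, 17 differences were positive, the median was 0.35 and none passed. Without wild-type replicate 1 the median was 0.13, with 1 rise and 1 fall, and with the length trend removed it was 0.10. The decapping factor Dcp1a had 51.8, 51.0 and 52.9 FPKM in the knockout and 6.62, 21.9 and 33.3 FPKM in wild type (log2 difference 1.54, SE 0.49, adjusted p = 0.086, and 0.044 without wild-type replicate 1). Knockout libraries were nearly alike and all above the scattered wild-type libraries. Cnot8, a deadenylase of the CCR4-NOT complex, averaged 186 ± 10.5 FPKM in the knockout and 93.9 ± 47.0 FPKM in wild type (adjusted p = 0.088). Btg4, the adaptor that brings this complex to maternal mRNAs, had a log2 difference of -0.24. Of 19 tested genes of maternal mRNA storage 17 differences were positive and the median was 0.49, which became 0.03 without wild-type replicate 1 and 0.28 with the length trend removed. Igf2bp2, which binds and stabilises mRNAs, averaged 23.7 ± 1.48 FPKM in the knockout and 10.2 ± 6.07 FPKM in wild type, and Dazl, a translational activator of germ cells, 175 ± 14 FPKM in the knockout and 237 ± 24.4 FPKM in wild type, neither past the threshold. Among 14 mRNAs known to lie dormant in the oocyte until maturation, Plat was the sole call (7.14%, beside 6.10% of all tested genes). The list median was 0.06, or 0.003 with the length trend removed. Without wild-type replicate 1 that median was -0.01 and 3 of these mRNAs rose.

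Dormant mRNAs are known for the cytoplasmic polyadenylation element, a U-rich site before the polyadenylation signal to which CPEB1 binds. The last 150 nt of the longest coding transcript of each gene were searched on the transcript strand for TTTTAT or TTTTAAT, and the last 50 nt for the signal AATAAA or ATTAAA. The element was found in 17 of 46 coding genes called higher (37.0%), in 61 of 274 called lower (22.3%) and in 1968 of all 7062 tested (27.9%). The signal was found in 95.7, 79.2 and 80.8% of them. TTTTAAT and AATAAA can share bases, as can TTTTAT and ATTAAA, and no match says only that these letters are absent from the window. The genes with it had a median log2 difference of 0.18 and those without it 0.09, or 0.10 and -0.01 with the length and GC trends removed. Stretches of 30 bases from GRCm38 (Ensembl transcripts of GENCODE M21) are given 5′ to 3′ on the transcript strand, in the DNA alphabet, with the element or the signal in capitals. They show called genes of both directions, chosen after their values were seen. Plat (chr8:22782744-22782773, + strand), Bub1b (chr2:118641556-118641585, +) and H1foo (chr6:115950157-115950186, +) rose and hold the element:
Plat: agtatatttataTTTTAATctattttagtt
Bub1b: cactgtgtaTTTTATAATAAAatagttttt
H1foo: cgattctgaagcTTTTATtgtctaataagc
Rpl32 (chr6:115805520-115805549, - strand) and Obox7 (chr7:14665931-14665960, +) fell and hold it too:
Rpl32: gtgcatgTTTTATgtttaAATAAAatcaca
Obox7: gctattaattttTTTTATtgttagagaata
Kif2a (chr13:106959000-106959029, -) rose without it, and Ndufa1 (chrX:37187595-37187624, -), Oosp2 (chr19:11647288-11647317, -) and Cox7a2 (chr9:79755364-79755393, -) fell without it, with the signal alone:
Kif2a: acgtcttcatacAATAAAttgttagaaagc
Ndufa1: tatgaaatgcatAATAAAaaattttaaaaa
Oosp2: atacatcaatgaAATAAAggctcagcttat
Cox7a2: ttttcacttgagAATAAAttcctggtaata

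Oocyte genes moved in both directions. Of 29 tested genes of oocyte identity and the zona pellucida, Astl and H1foo rose and Oosp2 and Oog2 fell (13.8% called, beside 6.10% of all tested genes). The list median was -0.20, or -0.01 with the length trend removed and 0.05 as TPM, a scale on which the median of all tested genes was 0.23. Astl, the cortical granule protease that cleaves the zona after fertilisation, had 19.3, 15.03 and 16.9 FPKM in the knockout and 3.25, 5.43 and 8.92 FPKM in wild type (log2 difference 1.48, SE 0.32, adjusted p = 0.043). H1foo, the linker histone of the oocyte, had 2248, 2046 and 2632 FPKM in the knockout and 1191, 1330.1 and 1332 FPKM in wild type (log2 difference 0.84, SE 0.19, adjusted p = 0.046). Its groups were apart. It was also the sole call (7.14%) of a list of 14 tested histone variants and linker histones, which does not hold Hist1h2ba or Hist1h2ao. The median of that list was 0.14, or 0.03 without wild-type replicate 1 and 0.02 with the length trend removed. Oog2, a leucine-rich oocyte protein with close copies, averaged 73.8 ± 10.5 FPKM in the knockout and 192 ± 46.0 FPKM in wild type. The growth factor gene Gdf9 had a log2 difference of 1.09, Bmp15 of -0.31 and Zp2 of -0.18, none past the threshold.

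The subcortical maternal complex, a maternal protein assembly beneath the egg membrane that holds several NLRP proteins, had no call among 8 tested genes, with 6 positive differences and a median of 0.40 (0.06 without wild-type replicate 1). Padi6 had 199, 198 and 165 FPKM in the knockout and 53.6, 101 and 181 FPKM in wild type, which overlapped. Of 11 other oocyte NLRP genes none was called, and their median was 0.12, or -0.10 without wild-type replicate 1 and -0.003 with the length trend removed. Nlrp9c averaged 234 ± 14.8 FPKM in the knockout and 344 ± 98.7 FPKM in wild type, Nlrp4b 83.5 ± 7.09 FPKM in the knockout and 108 ± 4.56 FPKM in wild type, both with libraries apart and neither past the threshold (adjusted p = 0.17 and 0.20).

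DNA methylation and imprint protection had the highest median of the 24 lists, 0.69 over 14 tested genes, or 0.44 with the length trend removed, with 12 positive differences and no call. Tet3, the oxygenase that oxidises methylcytosine in the paternal pronucleus, had a log2 difference of 1.16, Trim28 of 1.00 and Dnmt1, the maintenance methyltransferase, of 0.68. Uhrf1, which brings Dnmt1 to replicated DNA, had 43.9, 40.3 and 40.6 FPKM in the knockout and 12.5, 23.1 and 33.8 FPKM in wild type (log2 difference 0.92, SE 0.33, adjusted p = 0.11). The histone demethylase Kdm1b averaged 42.8 ± 2.49 FPKM in the knockout and 22.6 ± 10.1 FPKM in wild type (adjusted p = 0.082), and Cdca7, a chromatin remodelling partner, 8.91 ± 0.45 FPKM in the knockout and 4.83 ± 1.23 FPKM in wild type (adjusted p = 0.077). In all 3 the libraries were apart. Dppa3, which shields the maternal pronucleus from that oxidation, had 6189, 6218 and 6562 FPKM in the knockout and 16430, 10853 and 7834 FPKM in wild type (log2 difference -0.82, adjusted p = 0.10).

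Of 23 tested genes of calcium handling, which carry the oscillations that activate the egg, Vdac2 fell (4.35%, beside 5.53% of all tested genes) and none rose. The list median was -0.10, or -0.18 and 2 falls without wild-type replicate 1, and -0.21 with the length trend removed. Vdac2, a channel of the outer mitochondrial membrane, had 6.61, 7 and 4.62 FPKM in the knockout and 24.7, 14.96 and 14.8 FPKM in wild type (log2 difference -1.41, SE 0.28, adjusted p = 0.037). Its paralogue Vdac1 had a log2 difference of 0.65 and Vdac3 of -1.14, neither past the threshold. The egg's calcium release receptor Itpr1 had a log2 difference of -0.10, and the uniporter Mcu 0.48. Slc8b1, the mitochondrial sodium-calcium exchanger, was listed at 0 in all 6 libraries.

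The lists of genome activation factors and of 2-cell genes held few calls. Of 21 tested factors of genome activation and pluripotency, Obox7 fell (4.76%, beside 5.53% of all tested genes) and none rose. Their median was 0.16, or -0.03 without wild-type replicate 1 and 0.08 with the length trend removed. Obox7, an oocyte homeobox gene of a cluster with near-identical copies, had 169, 154 and 183 FPKM in the knockout and 634, 430.2 and 302 FPKM in wild type (log2 difference -1.37, SE 0.28, adjusted p = 0.039). Of 35 genes known for their burst at the 2-cell stage 6 passed the filter, with a median of -1.09. Of these 6, Arg2 and Tcstv1 fell (33.3%, beside 5.53% of all tested genes). With the length trend removed none was called. Arg2, the mitochondrial arginase, had 60.6, 75.4 and 49.1 FPKM in the knockout and 206, 179 and 115 FPKM in wild type (log2 difference -1.40, SE 0.27, adjusted p = 0.037). Tcstv1 had 14.5, 26.9 and 9.94 FPKM in the knockout and 62.4, 55.0 and 41.9 FPKM in wild type (adjusted p = 0.041, and 0.052 without wild-type replicate 1), and its neighbour Tcstv3, with a log2 difference of -1.30, shares much of its sequence. Zscan4d, the marker of this burst, was below 1 FPKM in every knockout library, at 0.579, 0.272 and 0.767, and stood at 3.19, 1.24 and 1.40 FPKM in wild type (adjusted p = 0.086). It passed the filter through wild type alone, so it could only come out lower.

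Classes drawn from other libraries gave a graded picture. Genes were sorted by mean FPKM in wild-type MII oocytes and wild-type 2-cell embryos, which the PN5 comparison does not use. Of 762 tested genes that fall at least 4-fold from egg to 2-cell embryo, 503 differences at PN5 were positive, with a median of 0.34. Of 1426 tested genes that rise at least 4-fold, 1001 differences were negative, with a median of -0.34. Of the 1993 genes that stay within 2-fold, 992 differences were positive and 1001 negative. After median-of-ratios scaling, which moves genes between the classes, 786 steady genes were positive and 1033 negative (median -0.10), and the medians of falling and rising genes were 0.29 and -0.41. Falling genes thus leaned higher in knockout zygotes and rising genes lower. The median of the rising class was -0.33 without wild-type replicate 1 and -0.17 with the length trend removed, and that of the falling class 0.12 and 0.28. The median of the steady class was -0.002 with all 6 libraries, -0.11 without wild-type replicate 1 and -0.02 with the length trend removed. Calls were 15 higher and 32 lower of the falling genes, 3 higher and 94 lower of the rising genes, and 6 higher and 151 lower of the steady genes. The share called lower was 4.20, 6.59 and 7.58% in that order, beside 5.53% of all tested genes. The share called higher was 1.97, 0.210 and 0.301%, beside 0.569% of all tested genes. Median exon lengths were 3465, 1782 and 3188 nt.

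**Figure D4:**
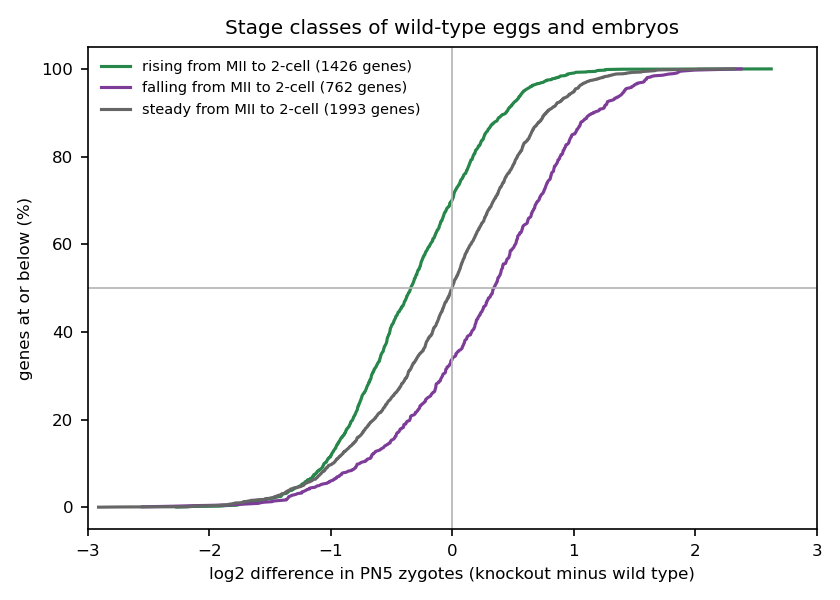
Share of genes (%) at or below each log2 difference (knockout minus wild type) in PN5 zygotes, for genes that rise (green), fall (purple) or stay steady (grey) from MII oocyte to 2-cell embryo in wild type. The medians, where the curves cross the horizontal line at 50%, are -0.34 for the 1426 rising, 0.34 for the 762 falling and close to 0 for the 1993 steady genes.

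Of 47 tested SR and core spliceosome genes Srsf4 rose and Lsm3 and Lsm7 fell (6.38% called, beside 6.10% of all tested genes), with a median of 0.13, or -0.07 with the length trend removed and near 0 without wild-type replicate 1. Lsm3 and Lsm7 code for small ring proteins of the U6 particle. Lsm3 had 5.29, 6.37 and 3.63 FPKM in the knockout and 19.6, 20.2 and 11.1 FPKM in wild type (log2 difference -1.54, SE 0.30, adjusted p = 0.037). The ring proteins Snrpe and Snrpd1 had log2 differences of -1.19 and -0.80, and Srrm2 and Sf3b1 of 0.96 and 0.65, none past the threshold. Of 34 tested genes of ribosome biogenesis and RNA polymerase I none was called, with a median of 0.27, or 0.04 without wild-type replicate 1. Nop10, a small protein of the pseudouridylation particle, averaged 9.03 ± 3.89 FPKM in the knockout and 31.3 ± 15.4 FPKM in wild type (adjusted p = 0.055).

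Of 48 tested cell cycle and replication genes 35 differences were positive, with a median of 0.42 (0.18 without wild-type replicate 1). Bub1b rose while Birc5 fell (4.17% called, beside 6.10% of all tested genes). Without wild-type replicate 1, 3 rose and 1 fell. Bub1b, the spindle checkpoint kinase BUBR1, had 245, 169 and 267 FPKM in the knockout and 65.8, 81.8 and 125 FPKM in wild type (log2 difference 1.33, SE 0.29, adjusted p = 0.043). Birc5, the survivin subunit of the chromosomal passenger complex, had 59.0, 78.2 and 47.5 FPKM in the knockout and 130.0, 129 and 111 FPKM in wild type (log2 difference -1.02, SE 0.23, adjusted p = 0.045). Both pairs of groups were apart. All 6 subunits of the MCM replicative helicase had positive differences, between 0.46 for Mcm6 and 1.16 for Mcm7, none past the threshold, and these remained positive without wild-type replicate 1. Mos, the kinase that holds the egg in meiotic arrest, had 79.0, 41.5 and 102 FPKM in the knockout and 35.5, 19.4 and 20.0 FPKM in wild type (log2 difference 1.5, adjusted p = 0.055). Summed over the list, FPKM was 3663 to 3718 in the knockout and 3370.2 to 3397 in wild type (exact two-sided permutation test, p = 0.1, the smallest possible).

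Stress pathways held no larger share of calls than all tested genes. In antioxidant defence Txn1 fell, alone of 19 tested genes (5.26%, beside 5.53%), with 14 negative differences and a median of -0.22, or -0.41 with the length trend removed and 0.01 as TPM. Peroxiredoxins, which Txn1 recharges, had log2 differences of -0.98 for Prdx3, -0.83 for Prdx1 and -0.76 for Prdx2, none past the threshold. Among 29 genes of the unfolded protein response and chaperones the median was 0.23, or 0.02 and 2 falls without wild-type replicate 1. With the length trend removed it was 0.10 with no call. The sole call (3.45%) was Hspe1, the mitochondrial co-chaperonin, with 13.3, 14.3 and 8.26 FPKM in the knockout and 35.3, 32.2 and 26.5 FPKM in wild type (log2 difference -1.34, SE 0.26, adjusted p = 0.037). Hspd1, its partner, overlaps it on the other strand and had a log2 difference of -0.02. None of 10 tested p53 targets and apoptosis genes was called (median 0.08, or -0.05 with the length trend removed). Casp8, the initiator caspase, averaged 13.7 ± 3.22 FPKM in the knockout and 33.4 ± 12.8 FPKM in wild type (adjusted p = 0.061), and Mdm2, the ligase that restrains p53, 32.5 ± 2.38 FPKM in the knockout and 19.7 ± 6.56 FPKM in wild type (adjusted p = 0.11).

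A small set of genes was lower both in MII eggs and in PN5 zygotes, which share no library. At MII 199 of 8739 tested genes (2.28%) were called. Of the 524 genes lower at PN5, 469 were tested at MII and 49 were called lower there, beside 1.96% of all genes tested at MII, and of the 54 higher 52 were tested and 2 were called higher, beside 0.320%. The 49 include Nlrp14, Ndufa1, Gstm5 and Uqcr11, of which Uqcr11 passed the filter through wild type alone at both stages. Others of the 49 also averaged below 1 FPKM in knockout zygotes, such as Hist1h2ap (0.467), Pcdhb17 (0.429) and Hilpda (0.942). Such genes met the filter at PN5 mainly or only through wild type, which favours a fall, so the share of 49 is partly set by the filter. Of these 49, 23 were called lower in 2-cell embryos as well, beside 2686 of the 8682 genes tested at both PN5 and the 2-cell stage. Of the 524 genes lower at PN5, 504 were tested at the 2-cell stage, with 125 called lower there and 128 higher. Of all 8682 genes tested at both stages, 2686 were called lower and 1632 higher in 2-cell embryos. Ndufa1 averaged 3.91 FPKM in knockout and 19.8 FPKM in wild-type MII oocytes (log2 difference -2.07, adjusted p = 0.013), and its log2 difference at the 2-cell stage was -1.44 (adjusted p = 0.012). Gstm5 averaged 26.5 FPKM in knockout and 80.6 FPKM in wild-type MII oocytes (log2 difference -1.58, adjusted p = 0.017). Tcf15 was the called rise with a name at both stages besides the microRNA gene Mir3473a, and had 9.61 FPKM in knockout and 2.75 FPKM in wild-type MII oocytes. Mir3473a averaged 1.25 FPKM in knockout zygotes and was listed at 0 in wild type. That gene passed the filter at PN5 through the knockout alone, so it could only come out higher. Others of the 49, named after their values were seen, were the zinc finger genes Zfp345, with 10.3 FPKM in the knockout and 33.4 FPKM in wild type at PN5, and Zfp820, with 2.09 FPKM in the knockout and 8.30 FPKM in wild type, the small GTPase Rab32, with 12.1 FPKM in the knockout and 25.7 FPKM in wild type, and the endoplasmic reticulum chaperone Calr3, with 23.0 FPKM in the knockout and 56.9 FPKM in wild type. Of the 469 genes, these 49 included, 267 or 56.9% had a negative difference at MII, where 65.96% of all genes tested at both stages did, and the rank correlation across 8387 genes was -0.35, a description over genes that are not independent. The same correlation was -0.15 with GV oocytes and -0.13 with 2-cell embryos.

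**Figure D5:**
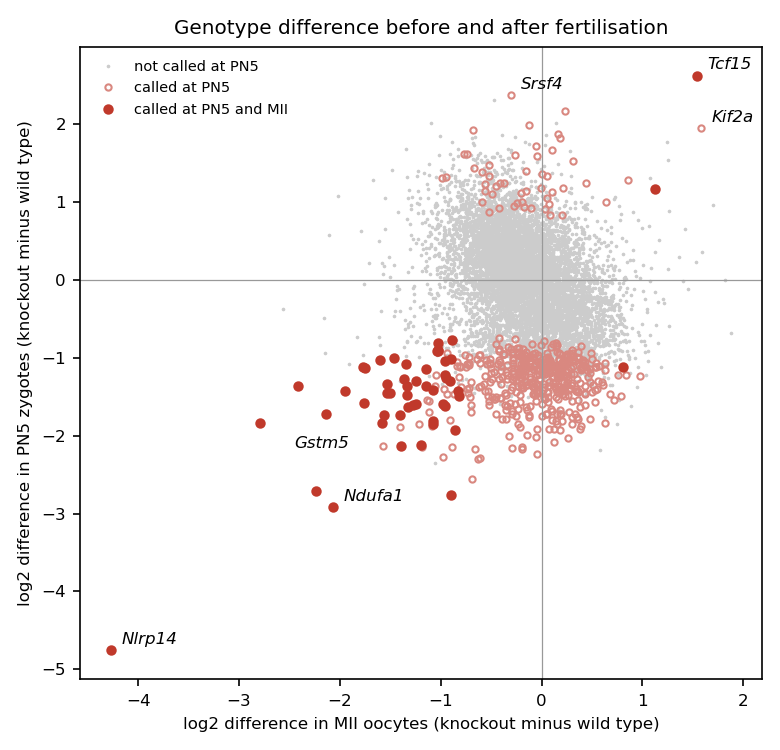
Log2 difference (knockout minus wild type) of each gene in PN5 zygotes, on the vertical axis, against that in MII oocytes, on the horizontal axis, with open circles for genes called at PN5 and filled red circles for genes called at both stages. Nlrp14 and Ndufa1 lie far down in the lower left, the filled circles lie almost all in that corner, and Srsf4 and most other rises at PN5 sit above 0 without a rise at MII.

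The genotype difference itself changed between MII and PN5 for 759 of 10190 genes tested in all 12 libraries (7.45%), 291 of them upward (2.86%) and 468 downward (4.59%), by a limma interaction. Plat went with them, with a change of 2.13 (adjusted p = 0.045): its mean was 762 FPKM in knockout and 797 FPKM in wild-type MII oocytes. Bub1b changed by 1.86, Oosp2 by -1.96, Txn1 by -1.85, Arg2 by -1.95 and Obox7 by -1.43 (adjusted p = 0.045 each). For Ndufa1 (change -0.84, adjusted p = 0.083), Kif2a (0.37, 0.67) and Gstm5 (-0.25, 0.56) no change was detected. The mitochondrially encoded genes, with a median difference of -0.57 at PN5, had one of 0.65 at MII. Complexes II to V had medians of -0.75 and 0.18, and complex I -0.63 and -0.03. The count was 0 with any 1 of the wild-type MII libraries left out and 4130 without wild-type PN5 replicate 3.

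Between PN5 and the 2-cell stage the genotype difference changed for 6860 of 14986 genes (45.8%, 4787 upward and 2073 downward). Kif2a, higher in knockout zygotes, was lower in knockout 2-cell embryos (log2 difference -1.85, adjusted p = 0.017), a change of 3.80 (adjusted p = 0.00060). Tcf15 changed by 2.85 (adjusted p = 0.015), Bub1b by 1.84 and Srsf4 by 2.23. Oosp2 changed by -2.58, Obox7 by -2.46 and H1foo by -2.54, since H1foo was 3.38 higher on the log2 scale in knockout 2-cell embryos and 0.84 higher at PN5. Gstm5, low in knockout eggs and zygotes, had a log2 difference of 0.53 at the 2-cell stage (adjusted p = 0.27) and a change of -2.36. For Plat (0.85, adjusted p = 0.16), Txn1 (-0.48, 0.40) and Arg2 (-0.10, 0.81) no change was detected.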

How the data were processed

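Per the labels, SMART-Seq HT cDNA was made from pools of 5 oocytes or embryos. The authors deposited FPKM values of 55487 Ensembl genes for each library. StringTie and GRCm38 were named in the submitters' processing notes. The sources used here give neither the aligner nor the annotation release or versions. GENCODE M21 matched 55227 identifiers and 260 stayed unnamed. FPKM times length of genes with 1 transcript came in whole multiples (up to 30, tolerance 0.02) for 98.8 to 99.2% of low values, which gave the depths, but genes with several transcripts gave no counts, so no count model was used. FPKM is relative to each library's total, so a larger mitochondrial share lowers all other values.

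log2(FPKM + 1) was fitted with limma 3.58.1 (R 4.3.3, the data.table package at 1.17.8, trend and robust empirical Bayes), keeping genes that reached 1 FPKM in 3 or more of the libraries fitted, at an adjusted p (Benjamini-Hochberg) under 0.05. Interactions used 12 libraries and 4 group means. The fit was tested on simulated data. Alternatives were median-of-ratios scaling, TPM, lowess removal of trends (span 0.3), a pseudocount of 0.1, other filters, a replicate block, array weights and leaving out libraries.

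The comparison, the 24 gene lists, 4 marker sets and the rule for named genes were chosen with earlier results of these data known. The rule took Nlrp14, Uhrf1, Slc8b1, the 12 largest rises and falls whose libraries were apart and whose higher mean reached 5 FPKM (no predicted genes, Rik genes or pseudogenes), up to 6 called members of each list or 2 of smallest p, and 6 genes per direction of each interaction. Other list members were named after their values were seen. Slbp2, a listed gene, had no match. Python 3.11.15, pandas 2.3.3, numpy 2.4.6, scipy 1.17.1 and matplotlib 3.10.9 were used.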

Additional observations from a re-analysis of the deposited data

Results flagged for a closer look

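Genes of the 2 interactions are given here because the test of the difference between stages itself passed (limma, adjusted p under 0.05), as the genotype difference at PN5 minus that at the other stage on the log2 scale. Against MII oocytes the upward changes were 2.96 for Lpcat1, 2.69 for Srsf4, 2.68 for Dcbld2, 2.67 for Atxn2l, 2.62 for Fam69b and 2.44 for Prep. Lpcat1, an acyltransferase of lung surfactant lipids, averaged 14.3 FPKM in knockout and 6.69 FPKM in wild-type zygotes, but 7.07 FPKM in knockout and 20.1 FPKM in wild-type MII oocytes. Downward changes were -2.77 for Vaultrc5, a vault RNA, -2.55 for Smap1, -2.47 for Pard3bos2, -2.28 for Iglv1, and -2.26 each for Sdhaf4 and Lsm3. Of the 6 PN5 libraries, wild-type replicate 1 was the lowest for each of the 6 upward genes.

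Against 2-cell embryos the downward changes were -4.68 for Ninj2, -3.98 for Gpx6, -3.85 for Hist2h2aa1, -3.74 for Mrpl53, -3.72 for Sptssb and -3.65 for Iglc2. Each of these 6 had a negative difference in zygotes, past the threshold for Gpx6, Hist2h2aa1 and Iglc2, and was called higher in knockout 2-cell embryos. Upward changes were 5.83 for Eif3j2, 4.51 for Cd3eap, 4.38 for D5Ertd605e, 4.16 for Nudt22, 4.12 for Stmn3 and 4.11 for Arg1. Stmn3, Arg1 and D5Ertd605e were listed at 0 in all 6 PN5 libraries, so their change is that of the 2-cell embryo. Eif3j2 was listed at 0 in 1 knockout and 2 wild-type zygote libraries. Iglv1, Iglc2, Hist2h2aa1 and Eif3j2 have close copies, so their reads are uncertain.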

How the results depend on the processing

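The 578 calls at PN5 became 14 with median-of-ratios scaling, 7 as TPM, 176 with the length trend and 144 with the length and GC trends removed, 110 with a pseudocount of 0.1 and 3 without a filter. They were 2492 with all 24 libraries in one fit and 6466 with array weights, whose estimation did not converge, 461 at a mean of at least 5 FPKM and 622 with mitochondrial genes left out of the scaling, an alternative added after seeing the data. With 1 library left out they ran from 1 to 2967. Deviations of same-numbered libraries were almost uncorrelated (-0.019, 0.015 and -0.006), and the labels do not say whether the replicate numbers pair samples. A replicate block left 1 call at PN5 and 2 of 759 against MII. The 759 became 803 with median-of-ratios scaling, 1 as TPM, 43 with the length trend removed, 88 with a pseudocount of 0.1, 13 without a filter and 0 to 4130 with 1 library left out. The 6860 against 2-cell embryos became 2892 at a mean of at least 5 FPKM and changed by less than 1.5 times elsewhere. As TPM, the knockout-to-wild-type ratio of summed levels was 0.814 for complexes II to V, 0.818 for mitochondrial and 0.664 for cytosolic ribosomal proteins, 0.909 for the proteasome and 1.64 for histone genes. Of the 64 named genes called at PN5 all kept their sign under the alternatives run, and 1, Nlrp14, stayed past the threshold with each library left out. Leaving out 1 library could not turn a sign, since the libraries of every called gene were apart. Depth of about 10 M fragments limits genes near 1 FPKM.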
